A study of Saccharomyces cerevisiae with 68 samples.

Results

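The early heat response of the laboratory yeast strain DBY8268 was read from the 4 arrays, of 68 in the series, that the labels give to this strain at 5 and 15 min after a shift to 37C. The members were chosen by strain and time label alone, with 2 series of samples at each time, called series 1 and series 2 here. DBY8268 is a laboratory strain of S288c type, the type whose genome serves as reference for Saccharomyces cerevisiae. The study followed heat shock in 5 strains of this budding yeast on 2-colour arrays, on which labelled RNA of a heated sample and of a reference competes for the same spots. Besides DBY8268 it used 4 strains from outside the laboratory lineage: K9, M22, RM11-1a and YPS163. All cultures were in log phase in the rich medium YPD at 25C, and prewarmed medium was added to bring them to 37C. The reference on each array was the RNA of the same strain, before the shift, so a positive log2 ratio means a higher level at 37C than at 25C in that strain. The same 2 times in the other 4 strains gave 16 arrays for comparison, and 8 arrays set the 25C RNA of those strains against that of DBY8268. The dye of the heated RNA was swapped between series 1 and series 2 in DBY8268, M22, RM11-1a and YPS163, and was the same in both series of K9.

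Heat damages proteins, and budding yeast meets it with a rapid change in transcription. The factor Hsf1 drives genes of chaperones, the proteins that keep others folded, hold aggregates or dissolve them, and the paired factors Msn2 and Msn4 drive a general stress programme of trehalose, glycogen and antioxidant genes. At the same time growing cells turn down the genes that build ribosomes and, with some delay, those of the ribosomal proteins themselves.

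A DBY8268 array gave values for 5771 to 6098 of 6297 reading frames, and one of the other 4 strains at these times for 3894 to 5922. The number of arrays limits the precision, with n = 2 per strain and time. Over genes, which do not count as replicates, the 2 DBY8268 arrays of a time correlated at 0.883 (5 min) and 0.919 (15 min). Series 1 had the wider spread of log2 ratios, with an SD of 1.08 at 5 min and 1.25 at 15 min, against 0.893 and 1.14 in series 2. Strain labels were checked on the arrays at 25C alone. The DBY8268 heat arrays hold this strain in both dyes, so the check does not cover them. Of the other markers, LEU2 had −5.57 in RM11-1a (1 array), −0.285 in K9, 0.755 in M22 and 0.925 in YPS163 relative to DBY8268. URA3 had −6.43 in RM11-1a (1 array), −0.55 in K9, −0.975 in M22 and −0.455 in YPS163. The asparaginase genes ASP3-1 and ASP3-2, which S288c carries in repeated copies that may share probes, had mean log2 levels of −5.87 (7 arrays) and −6.51 (6 arrays) in the other strains relative to DBY8268, and were low on every measured array. Array codes in the labels begin with yg7 for all DBY8268 arrays here, with yg8 for both YPS163 arrays at 5 min, both K9 arrays at 15 min and 1 M22 array at 15 min, and with yg9 for both RM11-1a arrays at 15 min. What the codes stand for is not stated.

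After 5 min DBY8268 had already raised its chaperone and stress genes by large factors and lowered the genes that make ribosomes. Of 5568 reading frames tested with limma, 864 were higher and 1093 lower at 37C (adjusted p under 0.05), which is 35.1% of those tested, and 470 (8.44%) and 625 (11.2%) of them differed at least 2-fold. At 15 min 1123 were higher and 1382 lower, 45% of those tested, 579 (10.4%) and 841 (15.1%) of them at least 2-fold. An 8-fold difference was passed by 67 higher and 34 lower genes at 5 min and by 77 and 116 at 15 min. Since the arrays hold bulk RNA, a change in every cell and a larger change in some cells cannot be told apart. The counts rest on both series: without series 1 there were 606 calls at 5 min and 1161 at 15 min, and without series 2 there were 1224 at 5 min.

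Among genes with a value on all 4 DBY8268 arrays, the highest fitted ratio at 5 min was that of the small heat shock protein gene HSP26 (YBR072W), whose product holds unfolding proteins. It stood at 8.02 and 7.10 at 5 min in series 1 and 2, and at 8.67 and 8.19 at 15 min, a fitted log2 ratio of 7.56 (SE 0.44, adjusted p = 4.45e-07) and 8.43 (adjusted p = 1.16e-07). SSA4 (YER103W), the strongly heat-induced cytosolic Hsp70 chaperone, had 7.89 and 6.27 at 5 min and 8.16 and 6.82 at 15 min. In both genes series 1 gave the higher value at each time, and neither passed the test for a change between the times. HSP12 (YFL014W), a small membrane-binding stress protein, ranked first at 15 min (8.62) and had 7.12 and 6.71 at 5 min and 9.31 and 7.94 at 15 min. Its change of 1.71 between the times (SE 0.54) had an adjusted p of 0.118, and of 0.00339 with the series as a block. HSP104 (YLL026W), the disaggregase that pulls proteins out of aggregates, was steadier between series, at 5.48 and 5.12, then 5.88 and 5.35 (5.30 at 5 min, SE 0.18, adjusted p = 1.2e-09).

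Other genes at the top of the response were TMA10 (7.12 and 6.47 at 5 min), RTC3 (5.85 and 5.64), the trehalose synthase subunit gene TSL1 (5.88 and 5.36) and the phosphoglucomutase gene PGM2 (5.59 and 4.93), all called at both times. Their values at 15 min were 6.99 and 5.41 for TMA10, 6.51 and 6.18 for RTC3, 5.60 and 5.62 for TSL1, and 6.10 and 5.93 for PGM2. HSP42 (YDR171W), for a chaperone that gathers misfolded proteins into deposits, had 7.01 and 5.45 at 5 min and 5.82 and 4.74 at 15 min.

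Chaperone genes did not all behave alike. All 6 genes of disaggregation and aggregate sorting rose at both times, against 15.5% of all genes at 5 min and 20.2% at 15 min, with a median of 5.59 at 5 min and 4.53 at 15 min. Of 7 cytosolic Hsp70 genes 4 rose at both times. The other members are the ribosome-bound SSB1 and SSB2 and their partner SSZ1, and all 3 fell at 15 min. SSB1 (YDL229W) had −1.27 and −1.35 at 5 min and −3.81 and −4.12 at 15 min, and SSB2 (YNL209W), a near-identical copy that may share its probe's signal, −1.02 and −1.65, then −3.71 and −4.21. SSA1, the constitutive Hsp70 gene, had 1.98 and 0.68 at 5 min and 2.16 and 1.13 at 15 min, with the same caution for its copy SSA2. Of 11 genes of Hsp90 and its co-chaperones 6 rose and 2 fell at each time. HSP82, the inducible Hsp90 gene, had 1.48 and 1.09 at 5 min and 2.13 and 1.30 at 15 min, and is close in sequence to HSC82. Of 15 Hsp40 and nucleotide exchange factor genes 6 rose at each time, led at 15 min by SSE2 (4.56 and 4.33), and of 12 mitochondrial chaperone and Lon protease genes 6 rose at 5 min and 7 at 15 min. The mitochondrial disaggregase gene HSP78 had 5.37 and 5.02 at 5 min, and 4.99 and 4.55 at 15 min. ER chaperone and unfolded protein response genes moved less: 4 of 16 rose at 5 min and 7 at 15 min, with medians of 0.38 and 0.50. The Hsp40 gene SIS1 had no value on any DBY8268 array.

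The general stress genes were nearly all up. Of 35 tested, 30 rose at 5 min (median 3.08) and 31 at 15 min (median 3.59), with none lower, beside medians over all tested genes of 0.005 and −0.005. The share of all genes that rose was 15.5% at 5 min and 20.2% at 15 min. Of 17 trehalose and glycogen genes 14 rose at 5 min and 13 at 15 min, with medians of 2.03 and 2.50. TPS1, which makes trehalose-6-phosphate, stood at 2.97 and 2.68, then 3.34 and 3.25. The cytosolic catalase gene CTT1 had 4.42 and 2.66 at 5 min, a wide gap between series, and 4.30 and 4.44 at 15 min. The polyubiquitin gene UBI4 depended on the series at both times, with 3.70 and 0.19 at 5 min and 5.55 and 1.18 at 15 min. It was called at 15 min (3.37, SE 0.94, adjusted p = 0.0104) and not at 5 min (1.95, adjusted p = 0.128). At 5 min the series block gave an adjusted p of 0.000183. The block takes the gap between series out of the error, so that p does not measure it.

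Among the transcripts of the factors themselves HSF1 and RPN4 were higher than at 25C, and MSN2 and MSN4 did not pass the test. HSF1 had 0.90 at 5 min on the only array with a value, and 1.18 and 1.03 at 15 min (1.10, SE 0.20, adjusted p = 0.00327). MSN2 had 0.23 and 0.42, then −0.04 and 0.35. MSN4 had 0.42 and 0.27, then 0.47 and 0.39, with an adjusted p of 0.0543 at 15 min. It was 0.0251 with the series as a block, which takes the gap between series out of the error. RPN4, the transcription factor of proteasome genes, rose to 1.35 and 1.93 at 5 min and stood at 0.66 and 1.01 at 15 min. Of 24 stress transcription factor genes 7 rose and 2 fell at each time. Over all genes 15.5% rose and 19.6% fell at 5 min, and 20.2% and 24.8% at 15 min.

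**Figure D1:**
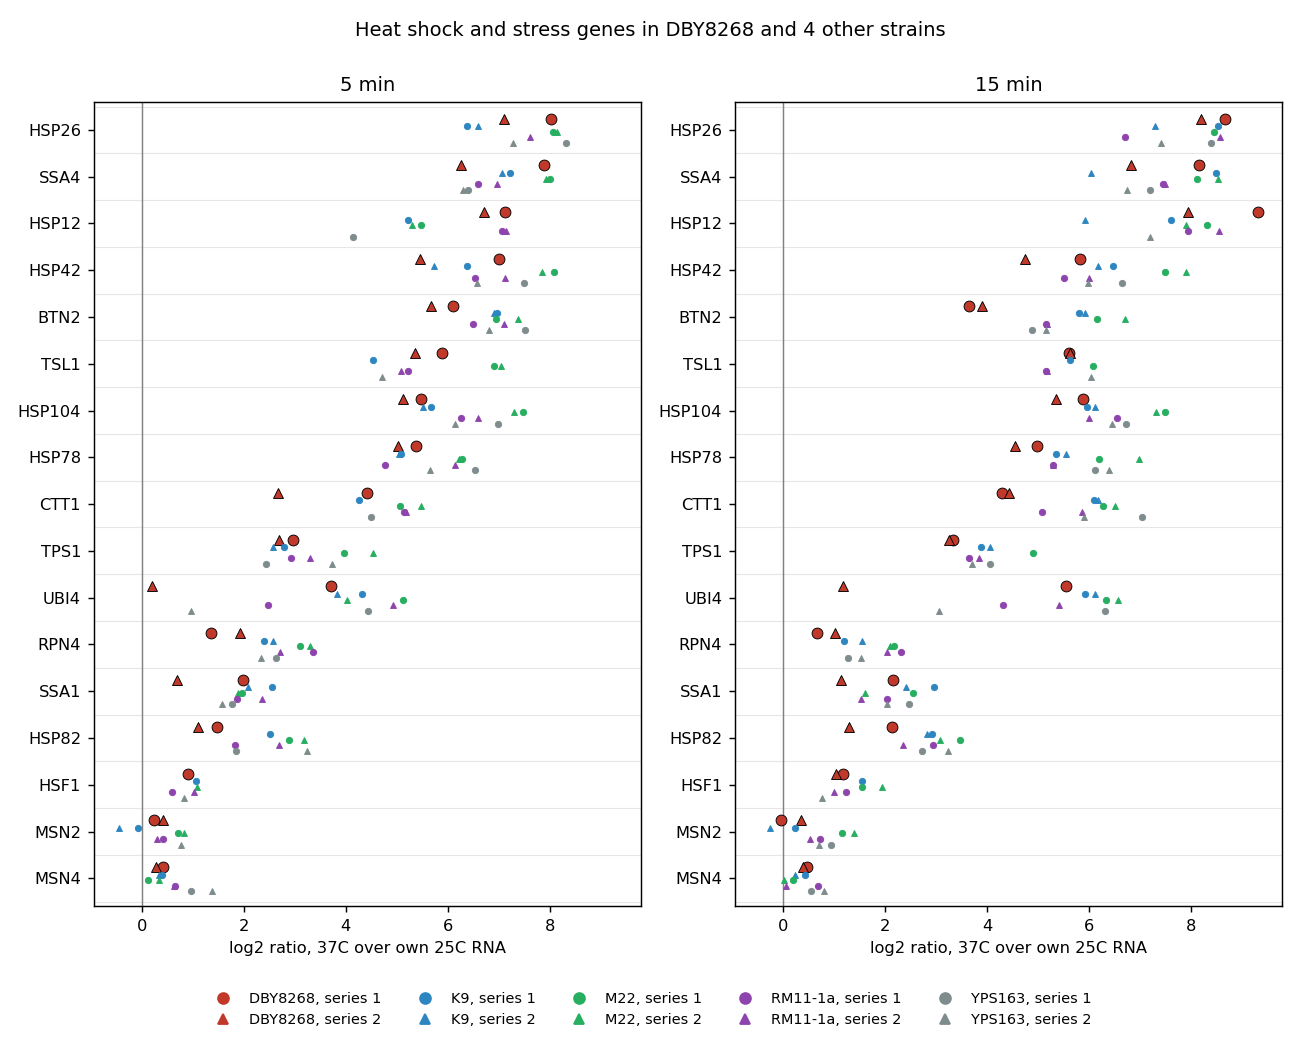
Log2 ratios (37C over the strain's own 25C RNA, x axis) of 17 heat shock and stress genes at 5 min and 15 min, 1 point per array, with DBY8268 as large red symbols and series 1 and 2 as circles and triangles. HSP26 and SSA4 of DBY8268 overlap with the other strains, BTN2 and RPN4 lie left of all of them at both times, and UBI4 shows the widest gap between the DBY8268 series.

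The genes that make ribosomes were the other pole of the response. At 5 min 42 of 48 genes of the small-subunit processome, the machine that cuts and folds the precursor RNA, fell (median −2.11), as did 58 of 62 large-subunit assembly genes (median −2.06) and 18 of 20 subunits of RNA polymerase I and III (median −1.57), against 19.6% of all genes. At 15 min 44, 62 and 17 of them were lower, against 24.8%, with medians of −2.17, −2.09 and −1.53. Of the 8 lowest genes at 5 min with a value on all 4 DBY8268 arrays 5 were of this kind, and series 1 was lower for each of the 8. RPA34 (YJL148W), an RNA polymerase I subunit, had −5.14 and −3.55 (fitted −4.35, SE 0.30, adjusted p = 3.95e-07). NOG1, a GTPase of large-subunit assembly, had −5.08 and −3.24, the processome gene IMP3 −5.22 and −3.03, the snoRNA protein gene NHP2 −4.42 and −3.53, and the pre-60S assembly gene IPI3 −4.09 and −3.42. Outside ribosome assembly the lowest were genes of nucleobase use: the purine salvage gene HPT1 (−4.91 and −3.04), the purine-cytosine permease gene FCY2 (−4.10 and −3.53) and the uridine permease gene FUI1 (−4.0 and −3.61).

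By 15 min the lowest genes with values on all 4 arrays were others. MTR4 (YJL050W), the RNA helicase of the nuclear exosome, stood at −4.41 and −4.39, after −2.96 and −2.41 at 5 min (fitted −4.40 at 15 min, SE 0.22, adjusted p = 5.28e-08). The processome gene RRP5 had −4.60 and −3.47, the S-adenosylmethionine synthetase gene SAM1 −4.01 and −3.99, the large-subunit assembly gene NOP7 −4.03 and −3.82, and the pyrimidine synthesis gene URA2 −3.94 and −3.83. Of these, RRP5, URA2 and MTR4 also passed the test for a lower value at 15 than at 5 min, and with the series as a block SAM1 (adjusted p = 0.0068) and NOP7 (adjusted p = 0.00262) did too.

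The cytosolic ribosomal protein genes, whose products form the ribosome, were mostly lower at 5 min and fell further by 15 min. Of 137, 124 were lower at 5 min (median −1.17) and all 137 at 15 min (median −3.07). With 1 of the DBY8268 series left out the fitted median was −1.36 to −0.926 at 5 min and −3.07 to −3.02 at 15 min. Many exist as near-identical pairs that can share probe signal, so single members are uncertain. The median over the list was −1.10 in series 1 and −1.19 in series 2 at 5 min, and −2.85 and −3.30 at 15 min. RPL13B had −1.11 and −1.60 at 5 min and −3.89 and −3.88 at 15 min. The weakest fall at 15 min was that of RPL41B (−0.53 and −2.02), and RPL22B ran the other way in time, with −4.16 and −2.54 at 5 min and −1.46 and −1.50 at 15 min. These 2 were chosen after their values were seen. Translation factors and tRNA synthetases moved in the same direction, with 39 of 55 lower at 5 min (median −0.81) and 53 at 15 min (median −1.78). YEF3, an elongation factor, had −1.24 and −1.26 at 5 min and −3.42 and −3.56 at 15 min. The mitochondrial ribosomal protein genes did not share this: of 71, 2 were higher and 11 lower at 5 min, and 5 higher and 3 lower at 15 min, with medians of −0.14 and 0.09. Over all genes 15.5% were higher and 19.6% lower at 5 min, and 20.2% and 24.8% at 15 min.

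Among genes of protein breakdown, the proteasome list had most of its calls at 15 min and the vacuolar list at both times. Of 36 proteasome genes 1, the regulator gene RPN4, was called higher at 5 min (median 0.02) and 24 at 15 min (median 0.69). The count at 15 min rests on both series, with 4 called without series 1 and 15 without series 2. The subunit gene RPN7 had 0.45 and 0.35 at 5 min and 1.26 and 1.08 at 15 min. Of 22 ubiquitin and quality control genes 7 were higher at 5 min and 12 at 15 min, and of 20 vacuolar protease and autophagy genes 12 and 14. The counts of these 3 lists stand beside 15.5% of all genes higher at 5 min and 20.2% at 15 min. In the test between the times 1 proteasome gene, no ubiquitin gene and 1 vacuolar gene were called higher, beside 0.772% of all genes. With the series as a block 5 of 35 proteasome genes were called higher, beside 2.92% of all genes. PBI2, an inhibitor of vacuolar proteases, stood at 2.07 and 2.31, then 3.92 and 3.41.

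Metabolic and cell cycle groups were mixed, and their counts stand beside 15.5% of all genes higher and 19.6% lower at 5 min, and 20.2% and 24.8% at 15 min. Of 51 genes of the TCA cycle and respiratory chain 20 were higher and 2 lower at 5 min, and 22 and 6 at 15 min, while of 24 glycolysis and fermentation genes 1 was higher at each time (PYK2) and 4 were lower at 15 min. Amino acid synthesis genes fell in 18 of 58 at 5 min and 34 at 15 min (median −0.67). Ergosterol synthesis genes, for the main sterol of the yeast membrane, fell in 9 of 27 and then 14. Of 15 phosphate starvation genes 1 was higher and 10 were lower at 5 min. Of 36 G1/S and budding genes 15 were lower at each time, among them the cyclin gene CLN2 (−2.38 and −1.62, then −2.54 and −1.98), and of 9 histone genes 2 were lower at 5 min and all 9 at 15 min (median −1.05). Of 29 cell wall and secretion genes 5 rose at 5 min and 13 at 15 min, with 8 lower at each time. Of 19 Ras and protein kinase A pathway genes 10 rose and 4 fell at 5 min, and 11 rose and 5 fell at 15 min.

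The next comparison asked how the response of DBY8268 moved from 5 to 15 min. Most of the called genes were lower at 15 min, and 120 of the 257 lower ones were ribosomal protein genes. At 15 relative to 5 min 43 genes were higher (0.772%) and 257 lower (4.62%), together 5.39% of 5568, and 36 (0.647%) and 245 (4.4%) of them changed at least 2-fold. Of 137 ribosomal protein genes 120 were lower (median change −1.88, beside −0.015 over all genes). With the series as a block, used because arrays of a series correlate, 128 were higher and 389 lower of 4388, 2.92% and 8.87%. Of 135 ribosomal protein genes 133 were then lower. The count drops to 72 without series 1 and to 54 without series 2. The lower genes had a median ratio of −1.03 at 5 min and −2.74 at 15 min. Their median change was −1.76, and in 251 of 251 with a value on all 4 arrays it had the same sign in both series. The genes were called on these same series, so the shared sign is no separate check.

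Of the 257 lower genes 225 were below 25C at both times, 19 above at both and 13 switched sign. The 19 and the 13 include genes that peaked at 5 min. The Hsp40 gene APJ1 (YNL077W) had 0.87 and 0.76 at 15 min after 4.18 and 4.46 at 5 min, a change of −3.51 (SE 0.32, adjusted p = 0.000246). ATG41, a gene of autophagy, had 1.45 and 1.03 at 15 min after 5.79 and 3.95 at 5 min, a change of −3.63 (SE 0.87, adjusted p = 0.033). FES1, a nucleotide exchange factor of Hsp70, had 1.29 and 1.72 after 3.93 and 3.87 (change −2.40, adjusted p = 0.000637). All 3 genes were lower at 15 min on both arrays than on either array at 5 min.

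The aggregate-sorting gene BTN2 (YGR142W) had 3.64 and 3.91 at 15 min after 6.10 and 5.67 at 5 min (change −2.11, SE 0.30, adjusted p = 0.00127), and its relative CUR1 1.45 and 1.52 after 2.77 and 3.15. These are the 2 members called lower among 6 disaggregation and sorting genes. Some genes raised at 5 min did not differ from 25C in the test at 15 min: ZPR1, a folding factor of translation elongation factor 1A, had −0.15 and 0.48 after 3.05 and 2.91, YNR014W 0.04 and 0.37 after 2.66 and 3.19, the stress factor gene CIN5 −0.29 and 0.04 after 2.24 and 2.58, and the hexose transporter gene HXT2 −0.25 and 0.08 after 2.52 and 2.32. Others were not called at 5 min and were low at 15 min. With the series as a block YHB1 (adjusted p = 0.0186) and RPL17A (adjusted p = 0.0445) were called lower at 5 min. In a test against 25C that block takes the gap between series out of the error, so these p do not measure it. YHB1 (YGR234W), a flavohaemoglobin that removes nitric oxide, had −3.91 and −3.20 after −0.85 and −0.45 (change −2.90, SE 0.41, adjusted p = 0.00156). RPL17A had −3.70 and −3.65 after −1.07 and 0.02, the AAA ATPase gene REA1 of large-subunit assembly −2.58 and −2.52 after −0.22 and −0.23, and the cell wall mannoprotein gene TIR3 −3.09 and −2.38 after −0.29 and −0.80.

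Ribosome assembly genes, low already at 5 min, moved in both directions. Of 48 processome genes 2 were higher and 7 lower at 15 min (median change 0.16), and of 62 large-subunit assembly genes 1 and 4 (median 0.13). Over all genes 0.772% were higher and 4.62% lower. With the series as a block 10 of 44 processome genes were higher and 11 lower, and 9 and 8 of 58 large-subunit assembly genes, beside the 2.92% and 8.87% of all genes. Among the members, RRP5 fell further (change −2.66, adjusted p = 0.00126) while IMP3 was less low at 15 min, at −2.57 and −1.55 (change 2.07, adjusted p = 0.0322). RPA34 had −2.23 and −2.52 at 15 min, a change of 1.97 (adjusted p = 0.0139), whereas RPA135, the core subunit of the same polymerase, had −4.15 and −3.75 at 15 min after −1.71 on the 1 array with a value at 5 min. Translation genes were lower in 21 of 55 (median change −0.83), and in 26 of 53 with the block.

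The 43 genes higher at 15 min had a median change of 1.51. In 22 of them both fitted ratios were above 0, in 11 both were below and 10 switched sign. PHO84 (YML123C), the high-affinity phosphate transporter gene, had −0.74 and −0.66 at 15 min after −3.40 and −3.67 at 5 min (change 2.84, SE 0.31, adjusted p = 0.00062). FCY2 had −1.57 and −1.59 (change 2.24, adjusted p = 0.000637), and the glutamine synthetase gene GLN1 −0.33 and −0.88 after −2.57 and −2.49. These genes were close to their 25C level again or had moved towards it. Late induction was seen in the cell wall protein gene PIR3, with 3.60 and 2.64 after 0.33 and 0.49, in KDX1, a kinase-like gene of the cell wall pathway, with 2.26 and 2.65 after 0.12 and 0.74 (change 2.02, adjusted p = 0.00622), in CRG1, a methyltransferase gene, with 3.01 and 2.22 after 0.73 and 0.44, and in the aldehyde dehydrogenase gene ALD3, with 3.96 and 3.81 after 2.09 and 1.71. SSA3, an Hsp70 gene of stress and starvation, had 4.97 and 4.62 after 3.39 and 2.54 (change 1.83, adjusted p = 0.0449). Of 29 cell wall genes 4 were called higher and 1 lower, beside 0.772% and 4.62% of all genes.

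**Figure D2:**
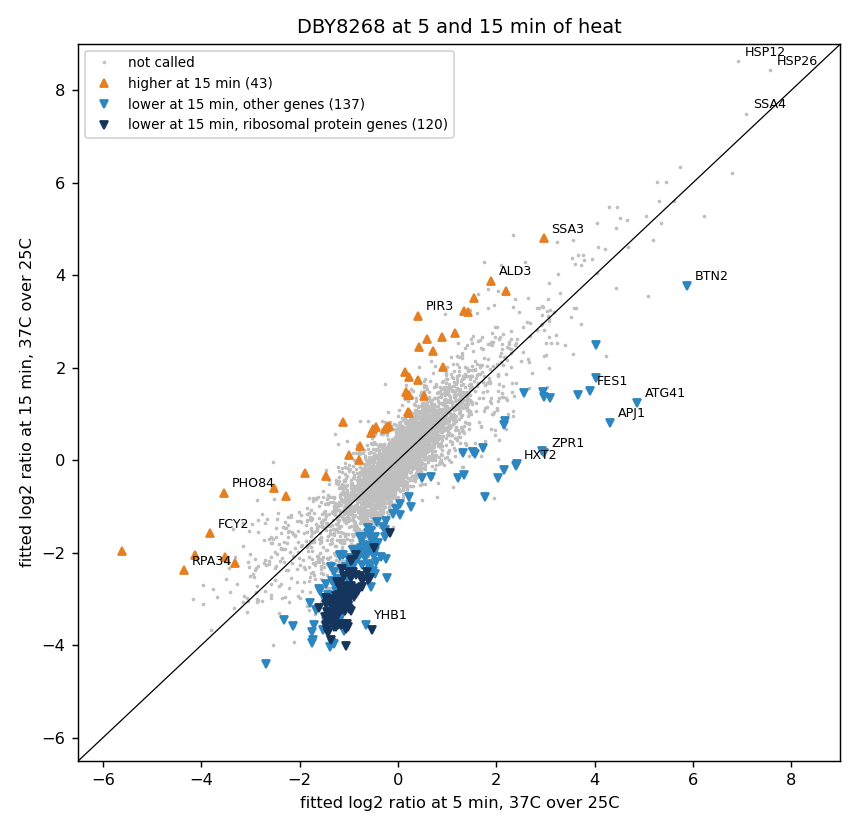
Fitted log2 ratio (37C over 25C) of DBY8268 at 5 min (x axis) and at 15 min (y axis) for each of 5568 genes, with the line of equal values. The 257 genes called lower at 15 min lie below the line, 120 of them ribosomal protein genes in a cloud near −1 at 5 min and −3 at 15 min, and the 43 called higher lie above it.

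The last comparison asked where DBY8268 leaves the same times in the other 4 strains, each weighted equally. At 5 min 9 genes were higher and 40 lower in DBY8268 than in the mean of K9, M22, RM11-1a and YPS163, 1.05% of 4661 tested, and 751 genes had an unadjusted p under 0.05. At 15 min 50 were higher and 135 lower, 3.97%, with 968 genes under an unadjusted p of 0.05. The median difference over all genes was −0.102 at 5 min and −0.152 at 15 min. With each array centred on its median 24 of 29 called genes were lower at 5 min and 122 of 174 at 15 min. Why the counts lean to the lower side was not tested. With the series of each strain as a block, 361 and 615 genes were called, but that block also takes out the spread between series from the comparison of strains. A single strain or series carried much of the count. At 5 min 8 genes were called without K9, 9 without M22, 31 without RM11-1a and 74 without YPS163, and 5 and 21 without series 1 and series 2 of DBY8268. At 15 min 35 were called without M22 and 315 without YPS163, and 13 and 30 without series 1 and series 2. Among arrays with the code yg7 alone, which leave out YPS163 at 5 min and K9 and RM11-1a at 15 min, 20 genes were called at 5 min and 110 at 15 min.

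Whether both DBY8268 arrays lay beyond all measured arrays of the other strains was counted as a description that uses no model. At 5 min they lay above in 74 genes and below in 463 of 4140 (1.79% and 11.2%), and at 15 min above in 113 and below in 453 of 4444 (2.54% and 10.2%). Ribosomal protein genes were below in 85 of 134 at 5 min, translation genes in 21 of 52, ergosterol synthesis genes in 7 of 26 and proteasome genes in 8 of 35. At 15 min proteasome genes were below in 22 of 36, ubiquitin and quality control genes in 9 of 21, antioxidant genes in 10 of 29, disaggregation genes in 4 of 6, ribosomal protein genes in 28 of 135 and translation genes in 17 of 54. Nucleotide and folate genes were below in 8 of 31 and above in 1 at 5 min, and above in 14 of 33 and below in 3 at 15 min. Amino acid synthesis genes were below in 6 of 54 and above in 1 at 5 min, and above in 8 of 57 and below in 1 at 15 min.

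Ribosomal protein genes had a median log2 difference of −0.71 between DBY8268 and the other strains at 5 min, and none of the 137 passed the test. The median ratio was −1.16 for DBY8268, against −0.20 (K9), −0.52 (M22), −0.55 (RM11-1a) and −0.25 (YPS163). Array by array it was −1.10 and −1.19 in DBY8268, and between −0.86 and 0.155 on the 8 other arrays, so the arrays did not overlap. With the series block 80 of 133 were called lower, beside 299 of 3729 over all genes. That block takes the spread between series out of the comparison of strains. At 15 min the medians were −3.07 for DBY8268, against −2.36 (K9), −2.80 (M22), −2.22 (RM11-1a) and −2.02 (YPS163), and the DBY8268 arrays, at −2.85 and −3.30, overlapped with the others, at −2.88 to −1.31. There 3 of 137 were called lower (RPL13B, RPS2 and RPL16B), beside 2.9% of all genes. The count was 14 without YPS163, 77 of 133 with the series block, and 105 when the arrays were scaled to one spread. Over all genes these settings called 201 of 4970, 474 of 3729 and 436 of 4661 lower. RPL13B had −3.89 and −3.88 in DBY8268, against −3.02 to −1.22 on 8 other arrays (−1.47, SE 0.25, adjusted p = 0.00839).

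The ribosome-bound Hsp70 genes SSB1 and SSB2 followed the same course, with a difference of −0.95 (SE 0.21, adjusted p = 0.0252) and −1.19 (adjusted p = 0.0367) at 15 min. Translation genes had a median difference of −0.41 at 5 min and −0.44 at 15 min. Of 55, 1 and 5 were called lower, beside 0.858% and 2.9% of all genes, and none without M22 at 15 min. Their medians on the arrays at 5 min were −0.89 and −0.75 in DBY8268, against −0.52 to −0.15. Ribosome assembly genes stood apart at single members. RPA34 was lower in DBY8268 at 5 min, at −5.14 and −3.55 against −3.08 to −1.96 (−1.77, SE 0.34, adjusted p = 0.0371), and at 15 min the strains met (difference −0.03). RLP7, an assembly factor of the large subunit, had −3.78 and −2.76, against −2.21 to −0.92 (−1.58, adjusted p = 0.0499). YOR309C, a dubious reading frame that overlaps the snoRNA protein gene NOP58 and so cannot be told from it, had −3.89 and −2.78, against −2.24 to −0.41 (−1.87, adjusted p = 0.0338). MTR4 was lower at both times, at −2.96 and −2.41 against −1.74 to −0.87 at 5 min, and at −4.41 and −4.39 against −3.40 to −2.30 at 15 min (−1.25, adjusted p = 0.0204).

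A single gene (1 of 4661) was called for a change from 5 to 15 min that differed between DBY8268 and the others (0.0215%), with 220 under an unadjusted p of 0.05. It was UTP9, a processome gene, which had −5.58 at 5 min on the 1 DBY8268 array with a value, and −2.06 and −1.86 at 15 min, against −3.09 to −1.58 and −2.28 to −0.87 in the others (difference of changes 2.74). Since the 5 min level rests on that array alone, the call has no replicate check, and none was made among genes with values on all 4 DBY8268 arrays. For every other gene tested, this fit did not show that a difference between strains at 5 min differed from that at 15 min. With the series as a block 14 of 3729 genes were called, and with all 60 time-course arrays 5 of 4670. On simulated data the test recovered 0% of added log2 changes of 1, so few calls do not show equal changes.

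**Figure D3:**
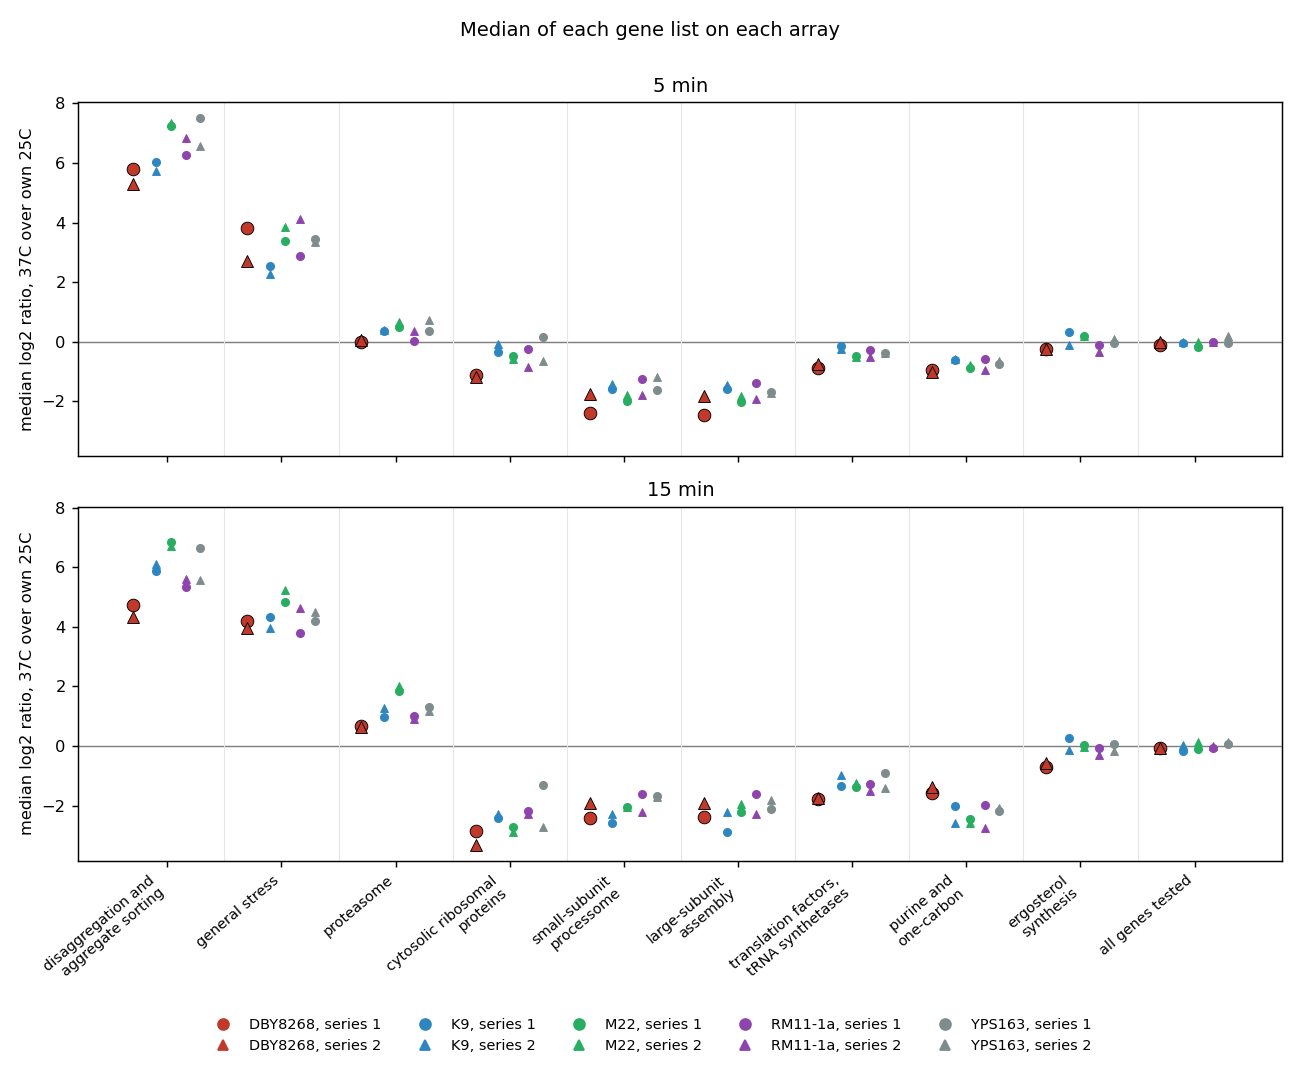
Median log2 ratio (37C over the strain's own 25C RNA, y axis) of 9 gene lists and of all genes tested, 1 point per array, at 5 min above and 15 min below, with DBY8268 as large red symbols. The DBY8268 ribosomal protein medians at 5 min (−1.10 and −1.19), the proteasome medians at 15 min (0.675 and 0.635) and the ergosterol medians at 15 min (−0.70 and −0.55) lie below those of all 8 other arrays, and the nucleotide and folate medians at 15 min (−1.57 and −1.38) above them.

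Several chaperone genes had a lower ratio to 25C in DBY8268. BTN2 had 6.10 and 5.67 at 5 min in DBY8268, against 6.49 to 7.52 (median 6.96) on 8 other arrays, and 3.64 and 3.91 at 15 min, against 4.88 to 6.71 (median 5.49). The differences were −1.15 (SE 0.24, adjusted p = 0.0497) and −1.86 (SE 0.24, adjusted p = 0.00168, but 0.0822 with the arrays of each time scaled to one spread). HSP104 had 5.48 and 5.12 at 5 min in DBY8268, against 5.51 to 7.48 (−1.16, SE 0.20, adjusted p = 0.0303), and 5.88 and 5.35 at 15 min, against 5.96 to 7.5 (−0.92, adjusted p = 0.0237), but with the arrays of each time scaled to one spread the difference at 15 min was 0.25. CUR1 had 2.77 and 3.15, against 3.5 to 4.77 on 6 arrays, and 1.45 and 1.52 at 15 min, against 2.08 to 3.85 (−1.25, adjusted p = 0.00839). These 3 were the members called at each time among the 6 disaggregation and sorting genes. Over all genes 0.858% were called lower at 5 min and 2.9% at 15 min. At 15 min 1 of the 3 was left without M22. After scaling none was lower and HSP26 was higher (2.06, adjusted p = 0.0197). The ratios of HSP26 as deposited did not pass the test, with 8.67 and 8.19 at 15 min in DBY8268, against 6.70 to 8.57 on 7 arrays. FES1 had 1.29 and 1.72 at 15 min, against 2.19 to 3.67 (−1.55, adjusted p = 0.00432), and ZPR1 −0.15 and 0.48, against 0.86 to 3.18 (−1.68, adjusted p = 0.0063).

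At 25C the other strains held less of some of these transcripts than DBY8268, by −1.34 on the log2 scale for HSP104 and −1.0 for BTN2, and −0.04 for FES1, as means of 8 arrays. Adding the 25C and heat values put HSP104 of DBY8268 above the others by 0.19 at 5 min and 0.42 at 15 min, so the sign turned, and BTN2 below them by −0.14 and −0.86. The heat ratios have the 25C RNA of each strain below the line, so levels and ratios share it. SSA4, HSP12, TSL1 and SSA1 did not pass the test against the other strains at either time, but after scaling SSA4 (1.5, adjusted p = 0.0443) and HSP12 (2.67, adjusted p = 0.01) were called higher at 15 min. HSP82 had 1.48 and 1.09 at 5 min in DBY8268, against 1.82 to 3.24 on 7 arrays (−1.32, adjusted p = 0.137), and was not called although the arrays did not overlap.

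RPN4 and 12 other genes of the proteasome list, in which RPN4 is the regulator, had lower ratios in DBY8268 at 15 min. RPN4 had 1.35 and 1.93 at 5 min, against 2.34 to 3.36 on 8 other arrays (−1.16, adjusted p = 0.0371), and 0.66 and 1.01 at 15 min, against 1.19 to 2.31 (−0.94, adjusted p = 0.0358). At 15 min these 13 of 36 were called lower, 23 were not called and none was higher, against 2.9% of all genes lower, with a median difference of −0.71 beside −0.152 over all genes. The called members, named for being called and so after their values were seen, include the catalytic subunit gene PRE2 (0.33 and 0.50 in DBY8268, against 0.92 to 1.98 on 7 arrays, −1.01, adjusted p = 0.0181), the lid subunit gene RPN3 (0.51 and 0.50, against 1.09 to 2.11 on 8, −0.92, adjusted p = 0.00497) and the base ATPase gene RPT6 (0.37 and 0.30, against 0.80 to 1.81, −0.94, adjusted p = 0.0109). The array medians of the list at 15 min were 0.675 and 0.635 in DBY8268, against 0.90 to 2.02. After scaling 9 were called lower, without M22 none, and without either DBY8268 series none. Without M22 the median difference was −0.50.

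The opposite sign was found in genes of purine synthesis and folate metabolism, whose ratios at 15 min lay further below 0 in the other strains than in DBY8268. The largest difference was that of ADE17 (YMR120C), a late enzyme of purine synthesis. It had −0.79 and −0.76 at 15 min in DBY8268, against −6.22 to −2.36 on 7 other arrays (3.73, SE 0.64, adjusted p = 0.0106), and at 5 min −0.57 and −0.79, against −2.26 to −0.73 on 8. GCV1, a subunit gene of the glycine cleavage complex, had 1.77 and 1.33 at 15 min, against −3.21 to 0.48 (3.13, adjusted p = 0.0249), and MTD1, a folate dehydrogenase gene, −0.45 and −0.76, against −5.36 to −2.40 (2.98, SE 0.39, adjusted p = 0.00325). In all 3 genes the groups did not overlap at 15 min.

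Of 34 nucleotide and folate genes 12 were called higher and 5 lower in DBY8268 at 15 min, against 1.07% and 2.9% of all genes, with a median difference of 0.14 (−0.01 after scaling to one spread, with 11 higher and 7 lower). The 12, named after their values were seen, are ADE17, GCV1 and MTD1 with GCV2 (2.97), SHM2 (2.34), ADE4 (2.01), ADE2 (1.98), FCY2 (1.62), ADE1 (1.39), ADE12 (1.38), ADE13 (1.36) and ADE57 (YGL234W, 1.34). Of these 7, ADE17 included, carry ADE names and code for enzymes of purine synthesis. The 5 lower genes are FUI1 (−1.58), URA1 (−1.15), URA2 (−0.94), MIS1 (−0.84) and URA4 (−0.79), of which the URA genes make pyrimidines. At 5 min 2 of the 34 were called, both lower, beside 0.858% of all genes lower. The count at 15 min was 3 higher and 1 lower without M22, 2 and 1 without series 2, and none without series 1.

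Other genes above the other strains at 15 min were SNZ1, of vitamin B6 synthesis (1.23 and 1.43, against −2.65 to 0.99, difference 2.68, adjusted p = 0.032), the cell surface protease gene YPS6 (3.49 and 2.89, against −1.88 to 2.62 on 6 arrays, 2.62, adjusted p = 0.0444), the iron-binding cell wall mannoprotein gene FIT2 (3.31 and 2.45, against −0.86 to 1.59 on 7, 2.57, adjusted p = 0.00342) and PHO84 (−0.74 and −0.66, against −3.66 to −1.48, 2.09, adjusted p = 0.00147). At 25C the mean level in the other strains exceeded that in DBY8268 by 1.48 for ADE17, 1.31 for GCV1, 0.99 for MTD1, 2.53 for SNZ1 and 3.12 for FIT2. Adding the 25C and heat values put DBY8268 above the others after heat by 2.25 for ADE17 and 1.98 for MTD1, and by 0.15 for SNZ1 and −0.55 for FIT2. Over 49 of the 50 genes higher in DBY8268 at 15 min the median level at 25C in the other strains relative to DBY8268 was 0.80, beside −0.015 over 4327 genes and −0.04 over 129 genes lower at 15 min. Since the heat ratios and these levels share the 25C state of each strain, they are no independent measurements.

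**Figure D4:**
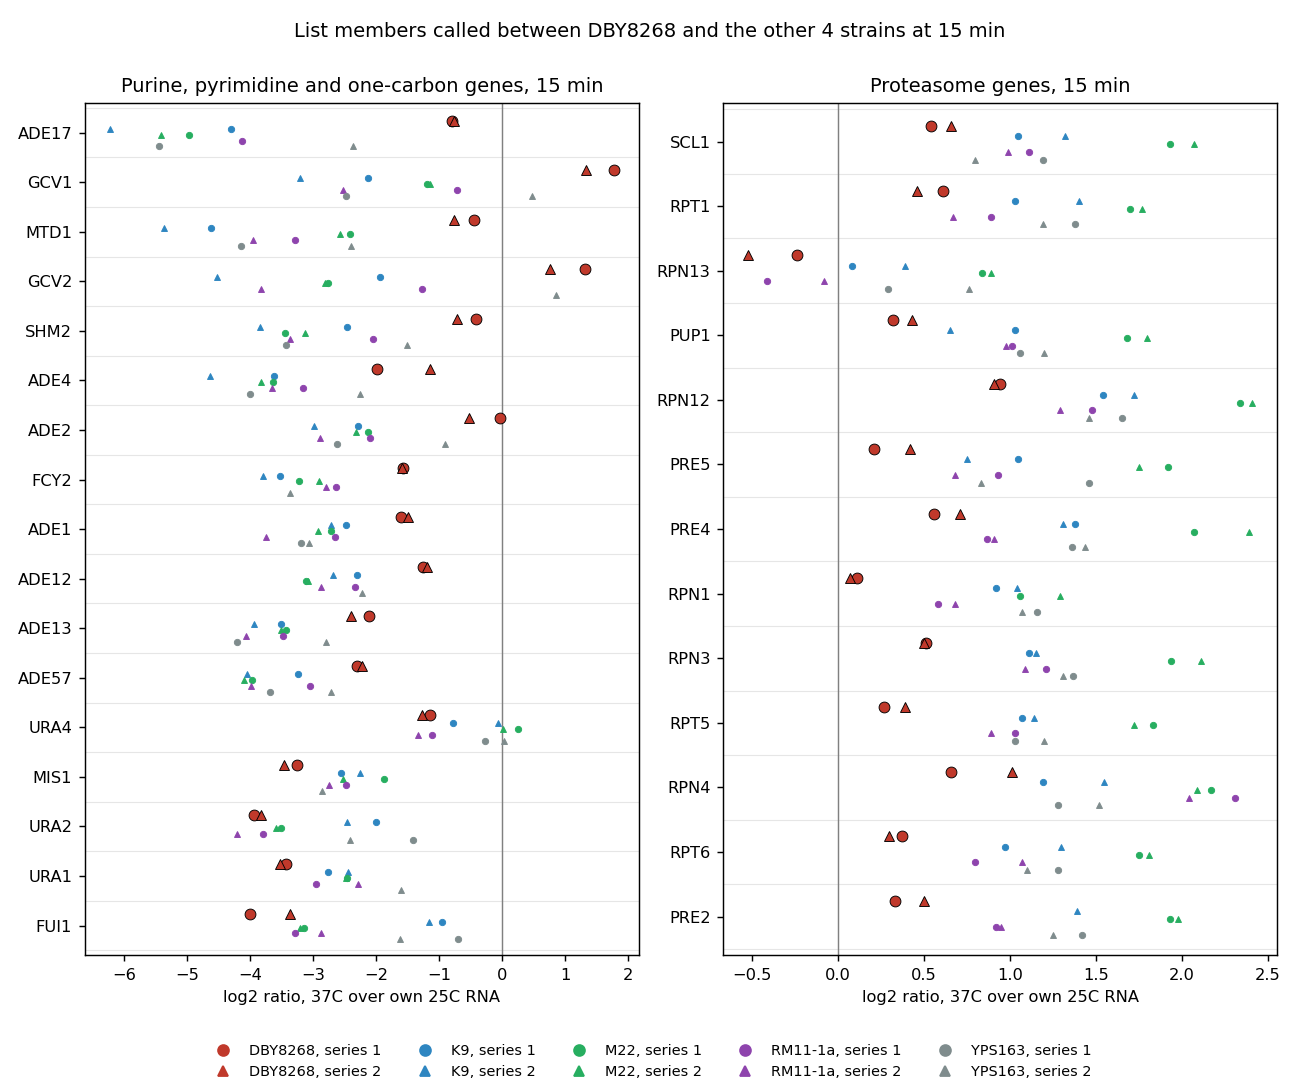
Log2 ratios at 15 min (37C over the strain's own 25C RNA, x axis) of the 17 nucleotide and folate genes and the 13 proteasome genes called between DBY8268 and the other 4 strains, 1 point per array, with DBY8268 as large red symbols. ADE17 of DBY8268 lies at −0.79 and −0.76, right of all other arrays, and the proteasome genes of DBY8268 lie to the left of most other points.

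Genes lower in DBY8268 at 15 min were led by YNL134C, of the alcohol dehydrogenase family, with 0.95 and 0.76, against 2.49 to 3.63 on 8 other arrays (−2.31, SE 0.22, adjusted p = 0.000368). SFA1, the dehydrogenase of formaldehyde and long-chain alcohols, had −0.35 and −0.07, against 0.13 to 2.89 (−1.90, SE 0.17, adjusted p = 0.000304), and was lower at 5 min too (−1.53, adjusted p = 0.00187). BRF1, a subunit of the RNA polymerase III initiation factor, had −1.82 and −2.07, against −0.72 to 0.62 (−1.88, adjusted p = 0.00124). YNL134C, SFA1 and BRF1 kept their call at 15 min under each of the alternatives run. CHA1, a serine and threonine deaminase gene, had 0.96 and 1.19, against 2.10 to 4.31 (−1.94, adjusted p = 0.0493), and the pheromone-regulated gene PRM10 1.04 and −0.12, against 1.33 to 3.62 on 7 arrays (−2.13, adjusted p = 0.0249). YHB1 had −3.91 and −3.20 in DBY8268 at 15 min, against −1.37 to 1.57 on 8 other arrays. It was not among the genes tested with all 4 strains. Over the fits that each left out 1 strain the difference was −4.09 to −3.26. That range takes in fits in which the gene was not tested, and the adjusted p of 0.0011 does not cover those.

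Some members of the lipid, antioxidant and respiration lists were lower too, beside 2.9% of all genes. Without 1 of the DBY8268 series 0 to 1 ergosterol, 0 to 1 antioxidant and 1 to 2 respiration genes were left. Of 27 ergosterol genes 7 were lower at 15 min (3 without M22), with a median difference of −0.47 and array medians of −0.70 and −0.55 in DBY8268, against −0.31 to 0.275. The isoprenoid isomerase gene IDI1 had −0.82 and −0.85, against −0.07 to 1.38 (−1.31, adjusted p = 0.00497), and HMG1, of the step that commits sterol precursors, −1.15 and −0.65, against −0.01 to 0.78 (−1.33, adjusted p = 0.00545). Of 29 antioxidant genes 6 were lower, none of them without M22. CTT1 had 4.30 and 4.44, against 5.08 to 7.04 (−1.72, adjusted p = 0.0403), and the glutaredoxin gene GRX2 0.86 and 1.18, against 1.72 to 2.58 (−1.13, adjusted p = 0.00451). Of 50 genes of the TCA cycle and respiratory chain 6 were lower (2 without M22, 12 without YPS163), with the malate dehydrogenase gene MDH2 at −1.46 and −1.04, against −1.57 to 2.29 (−1.87, adjusted p = 0.00124), where the ranges overlap. Of 27 general stress genes 1 (CTT1) was called, with a median difference of −0.34 that was 0.47 after scaling. Of 70 mitochondrial ribosomal protein genes none was called, and 2 of 66 lay below all other arrays, against 10.2% of all genes. IDI1, HMG1, GRX2 and MDH2 were chosen after their values were seen.

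At 5 min the genes above the other strains were few. CPS1, a vacuolar carboxypeptidase gene, had 1.51 and 1.35, against −0.25 to 0.44 on 7 arrays (1.44, SE 0.19, adjusted p = 0.0118). The cytosolic acetaldehyde dehydrogenase gene ALD6 had 2.20 and 2.00, against 0.37 to 1.62 (1.27, adjusted p = 0.0276), the ammonium permease gene MEP1 1.74 and 1.64, against −1.03 to 1.31 (1.98, adjusted p = 0.0499), YIR043C 1.11 and 0.75, against −1.23 to 0.59 (1.18, adjusted p = 0.0497), and NCE103, the carbonic anhydrase gene, 3.85 and 4.22, against 2.11 to 3.55 on 8 (1.14, adjusted p = 0.0497). NCE103 was close to the others at 15 min, at 2.46 and 2.54 against 1.85 to 3.73. Lower at 5 min were OPI10, a gene of lipid regulation whose human relative carries Hsp70 into the nucleus, with 2.85 and 3.08, against 4.18 to 5.32 (−1.83, SE 0.28, adjusted p = 0.0151), and at 15 min 2.34 and 2.18, against 3.11 to 4.74 (−1.64, adjusted p = 0.00755). HRP1, of mRNA 3′ end formation, had −1.17 and −1.95, against −0.97 to 0.97 (−1.75, adjusted p = 0.0497), and the haem oxygenase gene HMX1 0.90 and 0.53, against 1.04 to 3.28 (−1.65, adjusted p = 0.0499).

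**Figure D5:**
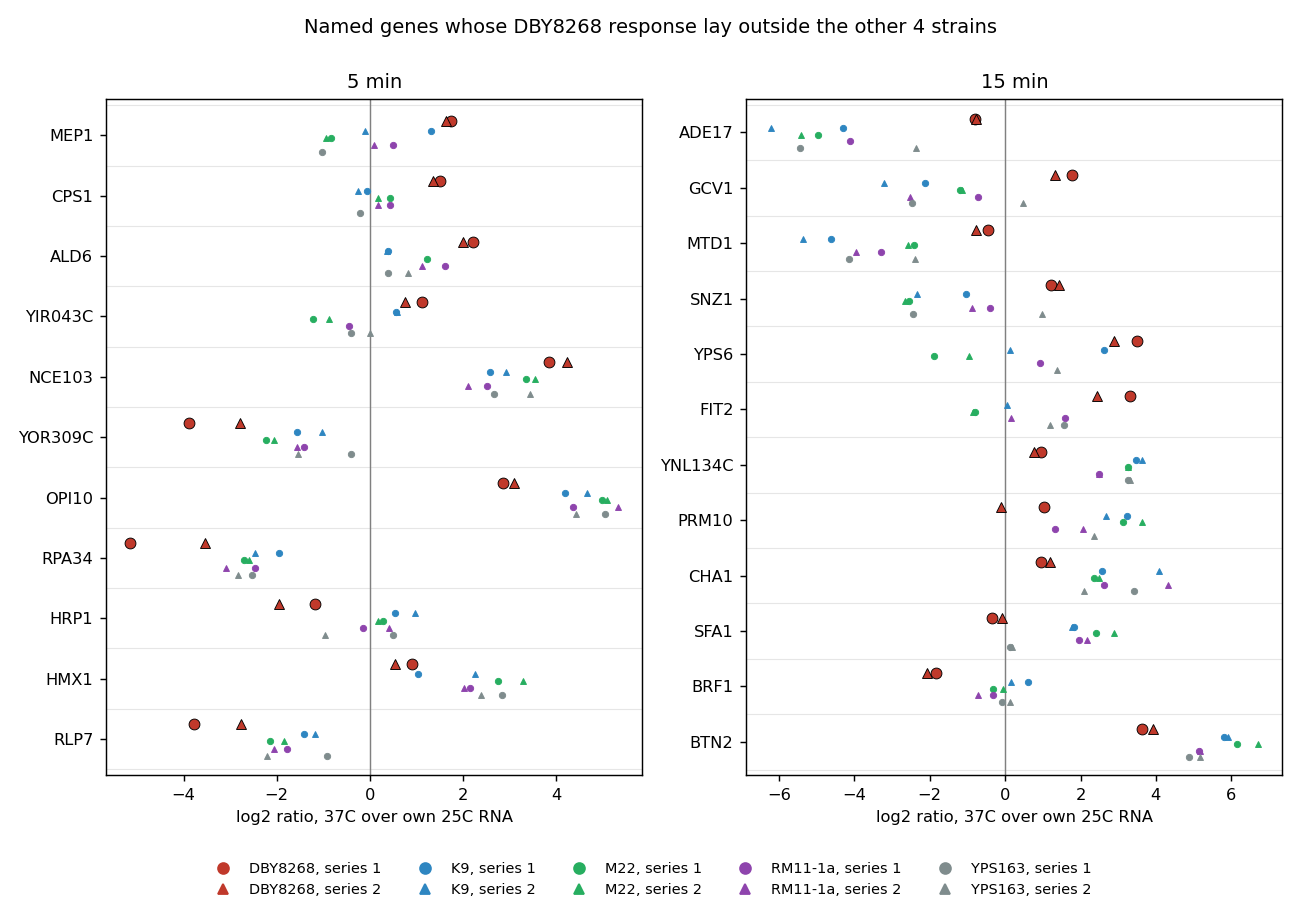
Log2 ratios (37C over the strain's own 25C RNA, x axis) of the 11 genes named at 5 min and the 12 named at 15 min, chosen because both DBY8268 arrays lay outside the range of the other 4 strains, 1 point per array. At 15 min DBY8268 lies to the right of all other points in the rows of ADE17, GCV1 and MTD1, and to the left in those of YNL134C, SFA1 and BRF1.

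Of the 50 genes higher in DBY8268 at 15 min the other strains had a mean below 0 in 39, and DBY8268 lay closer to 0 than that mean in 31. Of the 135 lower genes the mean of the others was above 0 in 98, and DBY8268 lay closer to 0 in 78. At 5 min DBY8268 lay further from 0 in 26 of 40 lower and 8 of 9 higher genes. Both DBY8268 arrays were outside the range of the other arrays in 33 of 47 higher and 103 of 126 lower genes at 15 min that could be counted, and in 5 of 9 and 32 of 37 at 5 min. Over all genes they lay above in 2.54% and below in 10.2% at 15 min, and in 1.79% and 11.2% at 5 min. The genes were called on these same arrays, so a high share is built into the choice and is no further evidence. Distance from 0 was not counted over all genes.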

How the data were processed

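The deposited table holds the authors' log2 ratios of heated over 25C RNA, 1 per reading frame and array; per the labels, RNA was extracted with hot phenol and labelled indirectly with cyanine dyes. Base 2 is assumed, and log base, normalization within arrays and centring are not given in the sources used here. Values were used as deposited. Symbols come from RefSeq R64 locus tags, which named 5832 of the 6297 frames, and 465 kept systematic names. No sequences or coordinates were used.

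For each gene, 10 strain and time means and a dye term were fitted by least squares to the 20 arrays at 5 and 15 min, with at least 3 residual degrees of freedom. Variances were moderated by squeezeVar of limma 3.58.1, under R 4.3.3 with statmod 1.5.0, and the moderated SD had a median of 0.308. The dye term was called in 1 gene. The procedure was run on simulated data with independent noise on each array, which leaves out the correlation within a series. Added log2 changes of 1 were recovered in 64% (5 min) and 66.5% (15 min) of genes for the responses. For the strain differences it was 53.5% and 50.5%, for the change 3% and for the difference of changes 0%. With log2 changes of 2 the last 2 were 92.5% and 89%. Adjusted p is Benjamini-Hochberg over all genes tested, at a threshold of 0.05, and a strain difference is DBY8268 minus the equal mean of the other 4 strains. The labels do not clearly give the series as separate cultures, so the spread behind each p may be technical.

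Deviations of the 2 series correlated between 5 and 15 min in every strain (0.575 in DBY8268, 0.268 to 0.582 in the others), so series number pairs the arrays, and values with it as a block are given where they move a count by over 1.5 times. Named were the 8 highest and 8 lowest called genes at each time and for the change, with 1 sign in both series, and the 6 highest and 6 lowest called strain differences at each time with both DBY8268 arrays outside the range of the others, among genes with values on all 4 DBY8268 arrays. Added were 18 heat shock genes whatever their result and the members of each list with the smallest p. Members, lists and alternatives were chosen with earlier results of these data known.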

Additional observations from a re-analysis of the deposited data

Results flagged for a closer look

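The genes at 5 and at 15 min are listed because DBY8268 and the other 4 strains differed in the limma test of the difference and both DBY8268 arrays lay outside the range of the other arrays. At 5 min the log2 differences, DBY8268 minus the mean of the others, were 1.98 for MEP1, 1.44 for CPS1, 1.27 for ALD6, 1.18 for YIR043C, 1.14 for NCE103, −1.87 for YOR309C, −1.83 for OPI10, −1.77 for RPA34, −1.75 for HRP1, −1.65 for HMX1 and −1.58 for RLP7. At 15 min they were 3.73 for ADE17, 3.13 for GCV1, 2.98 for MTD1, 2.68 for SNZ1, 2.62 for YPS6, 2.57 for FIT2, −2.31 for YNL134C, −2.14 for PRM10, −1.94 for CHA1, −1.90 for SFA1, −1.88 for BRF1 and −1.86 for BTN2. For the change from 5 to 15 min the difference was 2.74 for UTP9, whose value at 5 min comes from series 1 of DBY8268 alone. UTP9 is listed for its call only, since the condition on both series could not be applied to it. With n = 2 per strain and time no array could be tested as an outlier within its group.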

How the results depend on the processing

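The counts of called genes moved by over 1.5 times under these settings, and in each the cause was not tested. Without either series of DBY8268 the calls were 606 to 1224 at 5 min (1957 with both), 1161 to 1721 at 15 min (2505) and 54 to 72 for the change (300), 5 to 21 and 13 to 30 for the strain differences at 5 and 15 min (49 and 185), and 0 to 1 for the difference of changes (1). For the change, scaling the arrays of each time to one spread gave 527 calls, 24.3% of them higher against 14.3%, the series as a fixed replicate block gave 517, the 4 DBY8268 arrays alone 187, and a random replicate block, chosen after seeing the data, 528. For the strain difference at 5 min there were 29 calls with arrays centred on their medians, 17 with no dye term, 176 with all 60 time-course arrays, 361 with the fixed replicate block, 27 with the random block and 20 on yg7 arrays, and 8 to 74 with a strain left out. At 15 min there were 534 after scaling, 433 with 60 arrays, 615 with the fixed block, 110 on yg7 arrays and 35 to 315 with a strain left out. For the difference of changes the count was 0 after scaling, 5 with 60 arrays, 14 with the fixed block, 4 with the random block, 0 among genes with all 4 DBY8268 values and 0 to 3 with a strain left out. Among 639 results on named genes under 15 settings, 6998 of 7733 values kept direction and call, 465 lost the call, 269 gained it and 1 turned round: the HSP104 difference at 15 min, −0.92, was 0.25 after scaling. With n = 2 per strain and time, the number of arrays limits what the tests can call, most of all for the change and its difference between strains.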
